A study of Homo sapiens with 6 samples.

Results

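Androgen-induced genes other than the kallikreins were followed in LNCaP cells, a human prostate cancer line that grows in response to androgen, after short exposure to gedunin. Gedunin is a plant limonoid of the neem family. The genes were taken from a list of 33 named genes that androgen raises in this line, and 29 of them were represented on the array by at least 1 probe set naming that gene alone, out of 12165 genes represented in all. ACSL3, ADAM7, STEAP2 and SORD were on the list but had no such probe set in the annotation used, and are not analysed here. The tested cells received 20 µM gedunin for 6 h (3 arrays, gedunin 1 to 3) and the control cells received DMSO for the same 6 h (3 arrays, DMSO 1 to 3). All cultures were grown in RPMI medium with serum, and the numbers mark biological replicates in the labels. Values are Affymetrix intensities on a linear scale unless a log2 fold change is named, and the number of arrays limits their precision.

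The androgen receptor is a steroid-activated transcription factor. HSP90 and its cochaperones hold it ready to bind steroid, and the activated receptor enters the nucleus and binds DNA elements that regulate its target genes. In prostate epithelium those targets include, besides the secreted kallikreins, genes of transcription elongation, vesicle traffic, lipid and retinoid metabolism, membrane transport and growth control. Gedunin was studied for its effect on androgen signalling and on the HSP90 machinery, and the comparison asks how androgen targets stand early after exposure.

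Of the control arrays, the one labelled DMSO 3 did not carry the signal of prostate cells. All 10 leukocyte markers examined were at least 8-fold above the mean of the other 5 arrays there, with a summed intensity of 31620. Their sums were 751 to 841 on the gedunin arrays and 922 to 950 on DMSO 1 and 2, where 9 of the 10 were below the array median on all 5 arrays. Of 10 measured luminal prostate markers, 7 were at least 8-fold below, and their summed intensity was 296 on that array. Those sums were 15338 to 15981 with gedunin and 16076 to 16569 on DMSO 1 and 2. Of 8 fibroblast markers, 5 were below the array median on all 5 arrays, and their sums were 1206 to 1243 with gedunin and 1398 to 1410 on DMSO 1 and 2. Within the lists, the luminal genes KRT18 (0.47) and KRT8 (0.34) rose and TMPRSS2 (-0.70), FOXA1 (-0.57) and HOXB13 (-0.39) fell on the log2 scale with gedunin against DMSO 1 and 2. Of the fibroblast list COL1A1 rose (0.75) and VIM fell (-0.52), and the 10 leukocyte markers were not called. The part of these differences in the results below was not tested, and fewer cells of a type and less RNA per cell cannot be told apart in such arrays. The comparison was therefore made between gedunin 1 to 3 and DMSO 1 and 2, and the array labelled DMSO 3 is given apart, after it.

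Most of these androgen targets did not pass the test at 6 h. In limma's test of gedunin against DMSO 1 and 2, 4 of 29 members fell (C1orf116, RAB27A, CAMKK2 and ABCC4) and 3 rose (LRIG1, MPHOSPH9 and PTGER4) at an adjusted p of 0.05. Across all 12165 genes, 9.36% fell and 8.24% rose, 17.6% in either direction. Of the 21 members whose mean log2 intensity over the 5 arrays exceeded the array median, 4 fell and 2 rose, against 15.1% and 13.4% of the 6875 genes above it. In either direction that was 28.6% of these members and 28.6% of these genes, so the share of members called was that of genes of such levels. The median log2 fold change of the 29 members was -0.047 and that of all genes -0.017. Only C1orf116 among the members changed by 2-fold or more, a count that was not made over all genes.

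**Figure D1:**
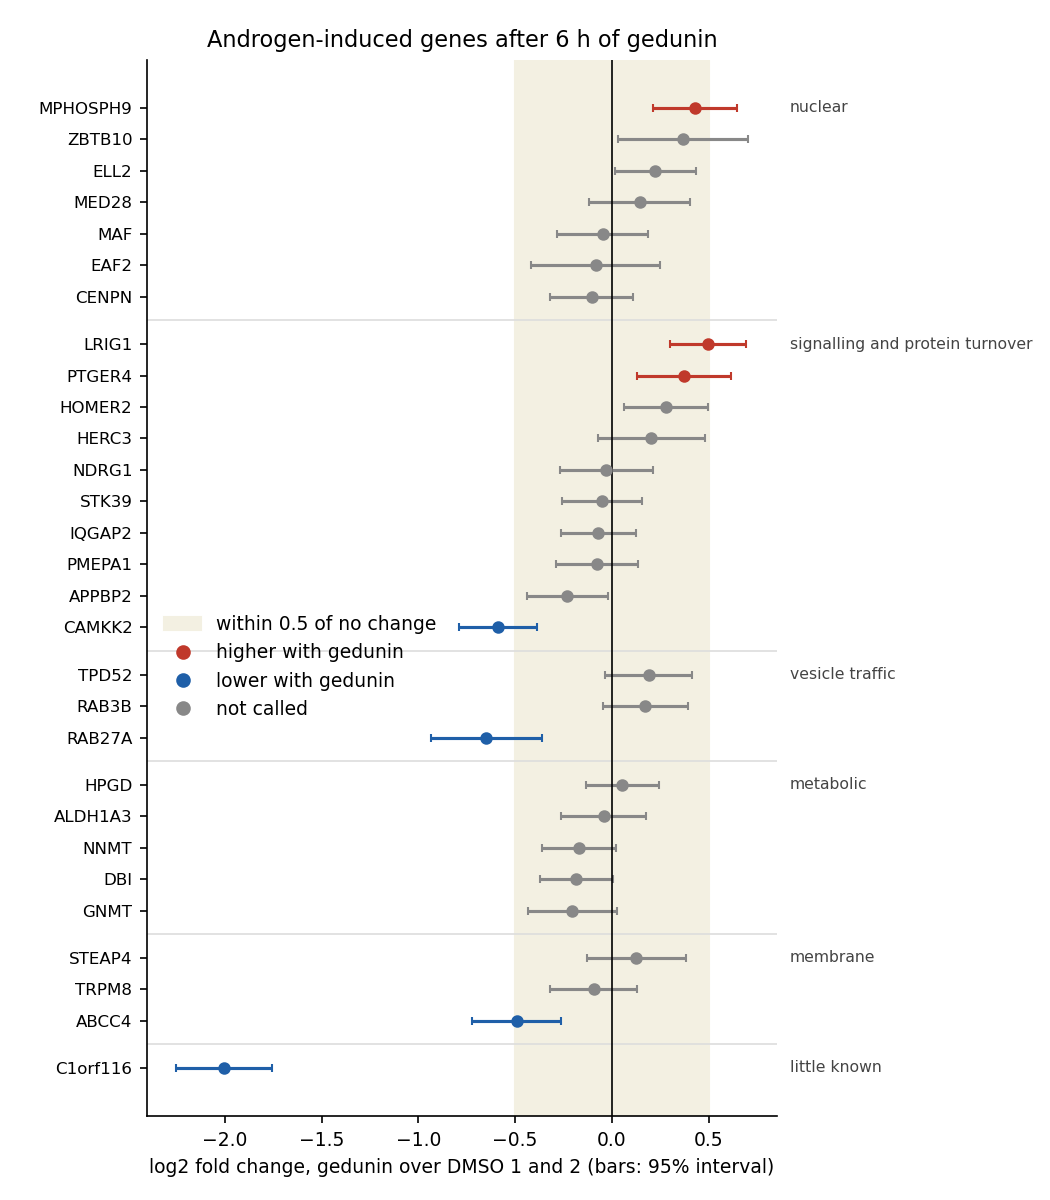
Log2 fold change of each measured member, gedunin over DMSO 1 and 2 (points), with its 95% interval (bars), grouped by role. The shaded band spans 0.5 either side of no change. C1orf116 stands alone at -2.01, while the other called members lie between -0.65 and 0.50.

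Of the 22 members not called, 21 had a 95% interval of the log2 fold change wholly within 0.5 either side of 0. That is a change of no more than 1.41-fold, on the brightest or only probe set of each. ZBTB10 was the exception, with an interval from 0.03 to 0.71. Among the 21, NNMT, TRPM8, IQGAP2, HPGD and STEAP4 lay below the array median on all 5 arrays. The summary method RMA compresses fold changes there, so their intervals bound the measured change and not that of the mRNA. Counting called genes too, 72.4% of the members and 73.6% of all genes had an interval within that bound. Of those with a mean above the array median, it was 71.4% of the members and 60.1% of the genes, a difference that was not tested. The groups of arrays did not overlap for 17 of the 29 members, against 46.3% of all genes.

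**Figure D2:**
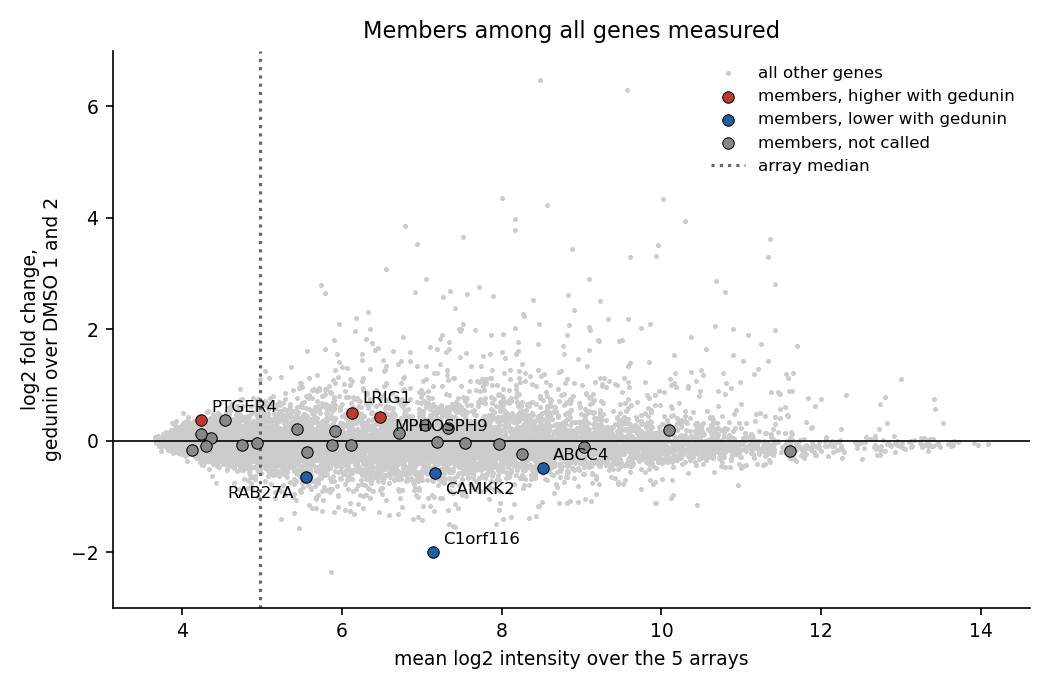
Log2 fold change, gedunin over DMSO 1 and 2, against mean log2 intensity over the 5 arrays for every gene (grey) and the 29 members (coloured). Of the members, 21 lie to the right of the array median, and C1orf116 has the lowest log2 fold change of them at -2.01.

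C1orf116, also known as SARG, is an androgen-regulated epithelial gene of little-known function. It is a protein-coding gene on the minus strand of chromosome 1, from 207018522 to 207032756 in GRCh38. Its brighter probe set read 93.1, 76.2 and 75.4 on gedunin 1 to 3, against 336 and 316 on DMSO 1 and 2. All gedunin arrays lay far below both DMSO arrays, at 24.9% of the DMSO level, and above the array median of 31.1 to 31.5. The log2 fold change was -2.01 ± 0.11 (SE, n = 3 and 2, adjusted p = 1.82e-06), and 1 gene of the 12165 had a lower value. The second probe set read 49.8, 58.3 and 38.0 with gedunin against 127 and 117 on DMSO 1 and 2, a fall by 1.35 ± 0.16 on the log2 scale (adjusted p = 3.06e-04).

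Sequences around start sites are shown for C1orf116, the largest fall, for LRIG1, the largest rise among the members, and for RAB27A, the called member whose window held the androgen hexamer. They are credited to RefSeq, build GRCh38.p14, and run from 250 bases before to 50 bases after a start site, 5′ to 3′ on the gene's strand, with the match in capitals. C1orf116 lies at chr1:207032707-207033006 on the minus strand, and its match is the antioxidant response element core TGACNNNGC on the opposite strand, beginning 8 bases before the start. The RAB27A window, at chr15:55270350-55270649 on the minus strand, belongs to 1 of its 5 listed starts and holds the androgen hexamer AGAACA on the opposite strand. The 2 LRIG1 windows, at chr3:66405718-66406017 and chr3:66500005-66500304 on the minus strand, belong to 2 of its 4 listed starts and hold the antioxidant core. The labels inner and outer order these 2 windows alone, and the gene extends to 66501121.
C1orf116: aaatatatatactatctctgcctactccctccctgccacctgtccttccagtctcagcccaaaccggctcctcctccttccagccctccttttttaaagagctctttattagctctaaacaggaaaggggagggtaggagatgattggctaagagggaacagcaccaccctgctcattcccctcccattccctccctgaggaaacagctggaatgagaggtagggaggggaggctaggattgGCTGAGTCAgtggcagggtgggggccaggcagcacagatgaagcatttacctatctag
RAB27A: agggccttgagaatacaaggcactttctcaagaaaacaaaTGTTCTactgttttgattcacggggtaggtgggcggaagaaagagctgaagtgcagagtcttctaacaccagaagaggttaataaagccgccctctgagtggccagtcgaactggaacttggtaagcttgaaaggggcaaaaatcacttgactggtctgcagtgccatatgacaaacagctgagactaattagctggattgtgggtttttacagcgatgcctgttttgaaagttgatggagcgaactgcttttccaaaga
LRIG1, inner start: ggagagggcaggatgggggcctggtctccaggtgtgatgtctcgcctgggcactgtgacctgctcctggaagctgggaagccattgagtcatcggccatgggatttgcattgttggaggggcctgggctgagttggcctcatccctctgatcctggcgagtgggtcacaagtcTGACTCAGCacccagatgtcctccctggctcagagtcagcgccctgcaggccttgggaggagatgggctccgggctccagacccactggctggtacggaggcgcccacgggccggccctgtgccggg
LRIG1, outer start: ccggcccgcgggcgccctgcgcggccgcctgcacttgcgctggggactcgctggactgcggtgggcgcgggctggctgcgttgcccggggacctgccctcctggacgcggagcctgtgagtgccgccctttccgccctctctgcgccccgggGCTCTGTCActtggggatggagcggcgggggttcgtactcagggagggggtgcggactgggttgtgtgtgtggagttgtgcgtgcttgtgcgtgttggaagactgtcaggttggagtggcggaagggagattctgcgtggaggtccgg

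Windows of this kind were listed for 23 of the 29 members, 45 in all. The full androgen response element, an inverted repeat of the hexamer AGAACA searched with 3 free bases between its arms, was in 0 of the 45 windows and in 1 of the 35116 windows of all genes. Only exact matches counted. A match so rare in all windows could hardly occur in 45, so its absence says nothing about these members. The hexamer AGAACA alone, searched on both strands like the cores below and part of the full element, was in 13.3% of the members' windows, in STK39, TRPM8, IQGAP2, RAB27A and PMEPA1, and in 14.8% of all windows. The antioxidant core was in 17.8% of the members' windows and 13.3% of all, and the heat shock core GAANNTTC in 8.89% and 6.77%. The amino acid response core TGATGNAA was in 2.22% of the members' windows and 3.62% of all. Among the called members, ABCC4 also held the antioxidant core and MPHOSPH9 the heat shock core, while the windows of CAMKK2 and PTGER4 held none of the 5 motifs. Such matches describe the letters of these windows and show no binding.

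Of the 7 nuclear members, 1 rose and 0 fell. MPHOSPH9, a phosphoprotein of the centrosome, lies on chromosome 12 from 123152324 to 123244002 on the minus strand. Its brightest probe set read 97.4, 107 and 97.9 with gedunin, against 70.0 and 79.7 on DMSO 1 and 2, a rise by 0.43 ± 0.10 on the log2 scale (adjusted p = 0.0140). A second probe set of the same gene moved the other way, with 46.2, 47.1 and 49.7 with gedunin against 66.6 and 73.5 on DMSO 1 and 2, a log2 fold change of -0.55 ± 0.09 (adjusted p = 0.00255). The groups did not overlap on either probe set, and its remaining probe set, below the array median, had -0.042 ± 0.09 (adjusted p = 0.819). The direction for this gene thus depended on the probe set, and the mean of all 3 probe sets gave -0.055. Without DMSO 1 the brightest probe set had 0.34, and with arrays centred on GAPDH and ACTB 0.26, and it was no longer called in either.

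The elongation factor gene ELL2, a subunit of the super elongation complex, read 184, 161 and 169 with gedunin against 143 and 150 on DMSO 1 and 2. All gedunin arrays were higher, yet the log2 fold change of 0.22 ± 0.09 did not pass (adjusted p = 0.156). EAF2, which encodes a partner of ELL elongation factors, had 54.6, 71.2 and 81.1 with gedunin against 68.8 and 75.5, with overlapping groups and a value of -0.083 ± 0.15. The Mediator subunit gene MED28 had 0.14 ± 0.12, the bZIP transcription factor gene MAF -0.047 ± 0.11, and the centromere protein gene CENPN -0.10 ± 0.10. ZBTB10, a zinc finger repressor gene, had 0.37 ± 0.15 (adjusted p = 0.146) at intensities of 20.6, 28.8 and 29.0 with gedunin and 18.5 and 21.6 on DMSO 1 and 2, below the array median on all 5 arrays. Without gedunin 1 it had 0.53 and was called.

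Of the 10 members of signalling and protein turnover, 2 rose and 1 fell. LRIG1, a membrane protein that restrains ErbB growth factor receptors, lies on chromosome 3 from 66378797 to 66501121 and rose most. It read 82.6, 77.1 and 82.3 with gedunin against 56.1 and 58.3 on DMSO 1 and 2, a rise of 1.41-fold (log2 fold change 0.50 ± 0.09, adjusted p = 0.00372), on its only probe set. The prostaglandin E2 receptor gene PTGER4 read 22.3, 20.3 and 20.3 with gedunin against 17.9 and 14.6 on DMSO 1 and 2, below the array median on all arrays. Its value of 0.37 ± 0.11 passed narrowly (adjusted p = 0.0440), and the other probe set had -0.027 ± 0.09. This call was lost without DMSO 2, where the value was 0.23, and without gedunin 1, 2 or 3, where it was 0.33, 0.40 and 0.40. It held in 6 of 15 alternative analyses of the 5 arrays.

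CAMKK2, a calcium-dependent kinase that activates AMPK, lies on chromosome 12 from 121237692 to 121297819 and fell. It read 126, 125 and 114 with gedunin against 183 and 183 on DMSO 1 and 2, at 66.6% of the DMSO level (log2 fold change -0.59 ± 0.09, adjusted p = 0.00168). Of its 4 probe sets a second also fell, by 0.51 ± 0.13 (adjusted p = 0.0270), and another had -0.41 ± 0.13 (adjusted p = 0.0676). The last, below the array median, had 0.20 ± 0.13.

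The other 7 genes of this group were not called in this fit. HOMER2, a scaffold protein gene, read 130, 150 and 147 with gedunin against 113 and 121 on DMSO 1 and 2, with groups apart and a value of 0.28 ± 0.10 (adjusted p = 0.0874). APPBP2, which encodes a protein that binds the amyloid precursor protein, had -0.23 ± 0.09 on its brightest probe set (adjusted p = 0.142), against 0.072 ± 0.10, 0.037 ± 0.11 and -0.056 ± 0.09 on its others. With arrays centred on GAPDH and ACTB the brightest had -0.40 and was called lower. HERC3, a HECT-type ubiquitin ligase gene, had 0.20 ± 0.12. PMEPA1, an inhibitor of TGF-beta signalling, read 53.9, 56.9 and 62.7 with gedunin against 60.2 and 61.5 on DMSO 1 and 2, with overlapping groups. Its log2 fold change was -0.076 ± 0.09, with an interval from -0.29 to 0.14. NDRG1, a stress-responsive growth regulator, had -0.029 ± 0.11, STK39, a kinase that controls ion cotransporters, -0.051 ± 0.09, and the scaffold gene IQGAP2 -0.069 ± 0.09. IQGAP2 lay below the array median on all 5 arrays.

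**Figure D3:**
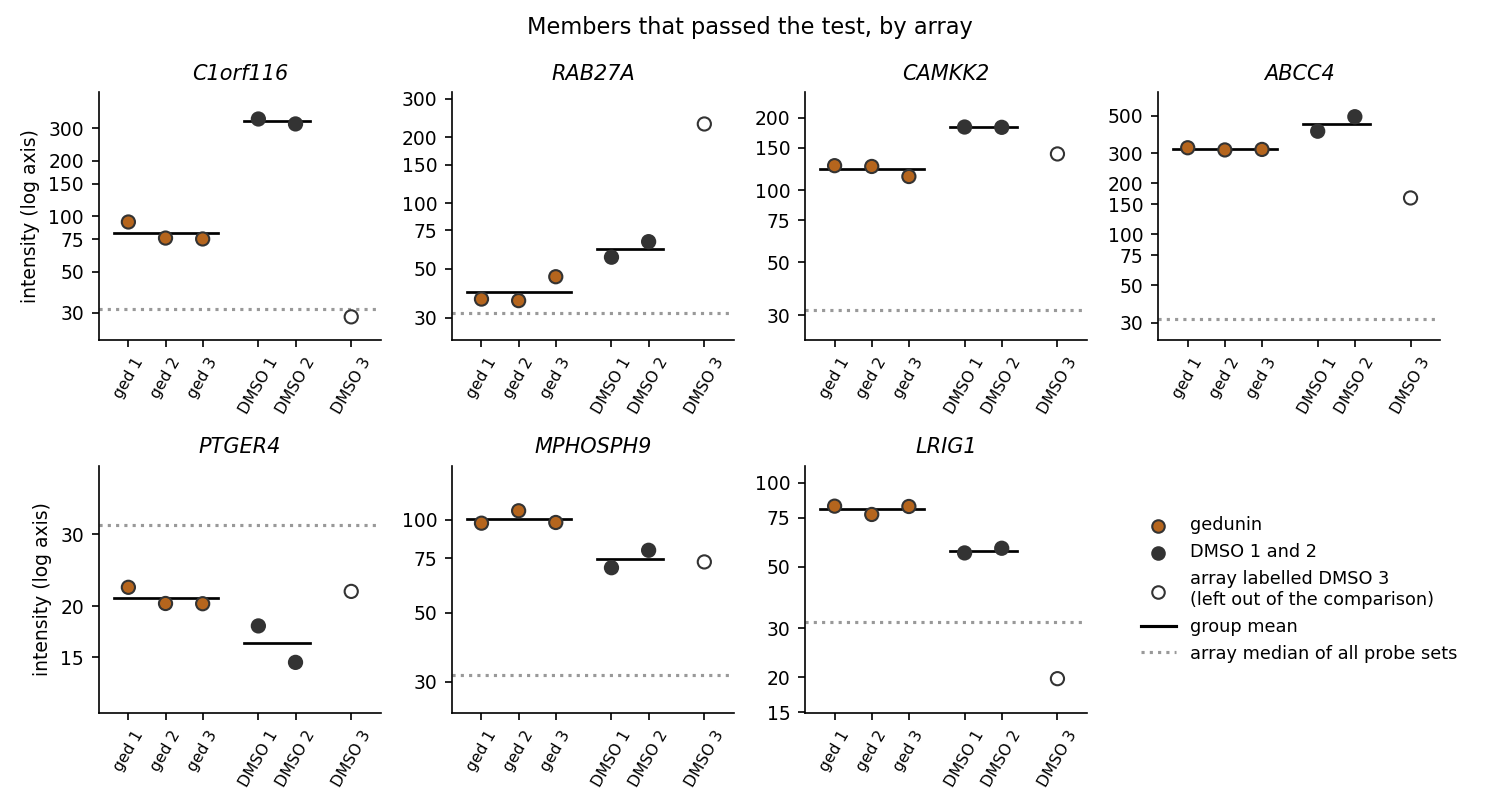
Intensity on every array (log axis) for the 7 members that passed the test, with gedunin arrays at the left, DMSO 1 and 2 beside them and the array labelled DMSO 3 as an open point. Lines are group means and the dotted line is the array median. Gedunin arrays and DMSO 1 and 2 do not overlap in any of the 7 panels, and PTGER4 lies below the array median.

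Of the 3 vesicle traffic members, 1 fell and 0 rose. RAB27A, a small GTPase that docks secretory vesicles, lies on chromosome 15 from 55202966 to 55319123 on the minus strand. Its brightest probe set read 36.4, 35.8 and 46.1 with gedunin against 56.6 and 66.7 on DMSO 1 and 2, at 63.8% of the DMSO level (log2 fold change -0.65 ± 0.13, adjusted p = 0.00701). It was called lower by 3 of its 4 probe sets, the other called values being -0.59 ± 0.10 and -0.61 ± 0.10. The call of the brightest was lost without DMSO 2, where the value was -0.53. RAB3B, another secretory GTPase gene, had 0.17 ± 0.10 (adjusted p = 0.311), with 69.6, 62.2 and 58.6 with gedunin and 55.1 and 57.3 on DMSO 1 and 2. TPD52, a coiled-coil protein gene of vesicle traffic, read 1069, 1134 and 1263 with gedunin against 969 and 1052, a value of 0.19 ± 0.10 (adjusted p = 0.265). On the brightest probe sets, the gedunin arrays thus lay below DMSO 1 and 2 for RAB27A, and above them for RAB3B and TPD52, where neither passed. The other RAB3B probe set had 0.15 ± 0.11, with overlapping groups. The other TPD52 probe sets had 0.20 ± 0.09, 0.18 ± 0.09 and -0.14 ± 0.10, the last with overlapping groups. The RAB27A probe set that was not called had 0.067 ± 0.10.

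None of the 5 measured metabolic members was called in this fit. On their brightest or only probe sets, all 5 intervals lay within 0.5 of 0. Centring arrays on GAPDH and ACTB called DBI (-0.35), NNMT (-0.34) and GNMT (-0.37) lower. ACTB itself was called higher with gedunin against DMSO 1 and 2 (0.32), so this scaling lowered the log2 fold change of every gene. DBI was also called lower with eBayes with trend and robust (-0.18) and by the mean of all its probe sets (-0.26). DBI, the acyl-CoA-binding protein gene, had the highest level of any member, with 2903, 3017 and 3017 with gedunin against 3334 and 3432 on DMSO 1 and 2. Its groups did not overlap, and its log2 fold change was -0.18 ± 0.08 (adjusted p = 0.199). The other DBI probe sets had -0.27 ± 0.08 (adjusted p = 0.0565) and -0.33 ± 0.11 (adjusted p = 0.0824). The interval of the last, from -0.58 to -0.079, was not within 0.5 of 0. ALDH1A3, a retinaldehyde dehydrogenase gene, read 181, 177 and 196 with gedunin against 177 and 204, a value of -0.042 ± 0.10 with overlapping groups. GNMT, the glycine methyltransferase gene, had -0.20 ± 0.10 (adjusted p = 0.243). NNMT, the nicotinamide methyltransferase gene, and HPGD, a prostaglandin-degrading enzyme gene, lay below the array median on all 5 arrays, with -0.17 ± 0.09 and 0.053 ± 0.08.

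Of the 3 measured membrane members, 1 fell and 0 rose. ABCC4, an exporter of organic anions and cyclic nucleotides also called MRP4, lies on chromosome 13 from 95019835 to 95301451. It read 324, 315 and 317 with gedunin against 406 and 495 on DMSO 1 and 2, at 71.1% of the DMSO level (log2 fold change -0.49 ± 0.10, adjusted p = 0.00929). The gedunin arrays lay close together and below both DMSO arrays, which differed more from each other. Without DMSO 2 the value was -0.35 and the call was lost. TRPM8, a cold-sensing cation channel gene, had -0.094 ± 0.10 and STEAP4, a metalloreductase gene, 0.13 ± 0.12. Both lay below the array median on all 5 arrays, a range in which RMA, the summary method used, compresses fold changes.

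Where a member had several probe sets, these gave a check within the same RNA. Of the 15 members with more than 1 probe set, C1orf116, RAB27A and CAMKK2 had at least 2 called the same way, and MPHOSPH9 had 2 called in opposite directions. No member was called by a less bright probe set alone. Over the 58 probe sets of the members, 3 rose and 9 fell, while 7.37% and 7.91% of all 22215 probe sets did. The 9 include at least 2 probe sets each of C1orf116, RAB27A and CAMKK2, so they are not separate genes. By gene, 4 of 29 members fell.

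**Figure D4:**
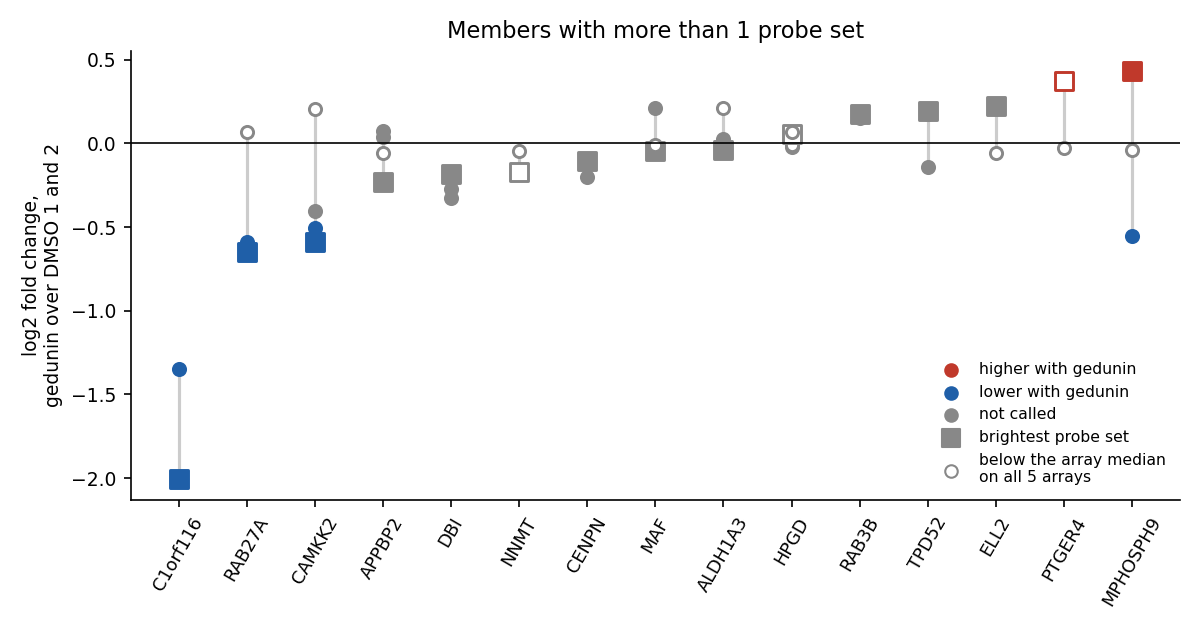
Log2 fold change, gedunin over DMSO 1 and 2, of every probe set of the 15 members with more than 1. Squares mark the brightest probe set and open symbols those below the array median on all 5 arrays. Both C1orf116 probe sets are lower, while MPHOSPH9 spans from -0.55 to 0.43.

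A further list held other genes that androgen raises in these cells, kallikreins included. Of its 37 measured genes, 8 rose, 7 fell and the others were not called, with a median log2 fold change of 0.012. Over all genes, 8.24% rose and 9.36% fell, and over genes with a mean above the array median 13.4% and 15.1%. Of the 37, 5 were below the array median on all 5 arrays. The largest rises were TSC22D3, a leucine zipper gene (1.99 ± 0.08), and the amino acid transporter gene SLC38A2 (1.20 ± 0.08). The largest falls were the guanylate cyclase subunit gene GUCY1A1 (-0.93 ± 0.09) and the epithelial transcription factor gene SPDEF (-0.89 ± 0.11). KLK3, the prostate-specific antigen gene, read 1702, 1817 and 1796 with gedunin against 2093 and 1810 on DMSO 1 and 2. It was not called (-0.14 ± 0.10, adjusted p = 0.425). C1orf116 had a lower log2 fold change than every measured gene of that list. With the array labelled DMSO 3 among the controls, 1 gene of the list rose, 1 fell and the median was 0.35.

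Of 16 measured cofactors and chaperones of the androgen receptor, 7 rose and 3 fell, beside the 8.24% and 9.36% of all genes. Of the 16, 0 were below the array median on all 5 arrays. Of genes with a mean above that median, 13.4% rose and 15.1% fell. The largest rises were in cochaperone and HSP90 genes, STIP1 (1.65 ± 0.09), FKBP4 (1.17 ± 0.08) and HSP90AA1 (1.11 ± 0.10). The transcription factors that open chromatin for the receptor or work beside it were the 3 that fell, GATA2 by 1.24 ± 0.10, FOXA1 by 0.57 ± 0.11 and HOXB13 by 0.39 ± 0.10 on the log2 scale. The list had a median log2 fold change of 0.20. With the array labelled DMSO 3 among the controls, 4 rose, 0 fell and the median was 0.64. The receptor gene itself is not analysed here.

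On the array labelled DMSO 3, 17 of the 29 members lay below all other 5 arrays, 6 above them and 6 among them. These counts were not made over all genes, so whether they are particular to the members was not tested. The array's Spearman correlation with the other 5 over all probe sets was 0.81 to 0.82, against 0.97 to 0.98 among those 5. On the array labelled DMSO 3, C1orf116 read 28.5, ALDH1A3 19.0, STK39 25.6 and NDRG1 22.0. These were 8.75%, 9.96%, 10.0% and 14.9% of their means on DMSO 1 and 2. EAF2 read 852, against 54.6 to 81.1 on the gedunin arrays and 68.8 and 75.5 on DMSO 1 and 2, and RAB27A read 230. With this array among the controls, 0 members were called by limma (3 at an unadjusted p under 0.05), against 1.67% of all genes (1.31% higher and 0.362% lower). With it included, 10 members changed sign, and sign changes were not counted over all genes. The values were then -0.83 ± 1.00 for C1orf116, -1.28 for RAB27A, -0.46 for CAMKK2, -0.0081 for ABCC4, 1.01 for LRIG1, 0.44 for MPHOSPH9 and 0.23 for PTGER4.

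**Figure D5:**
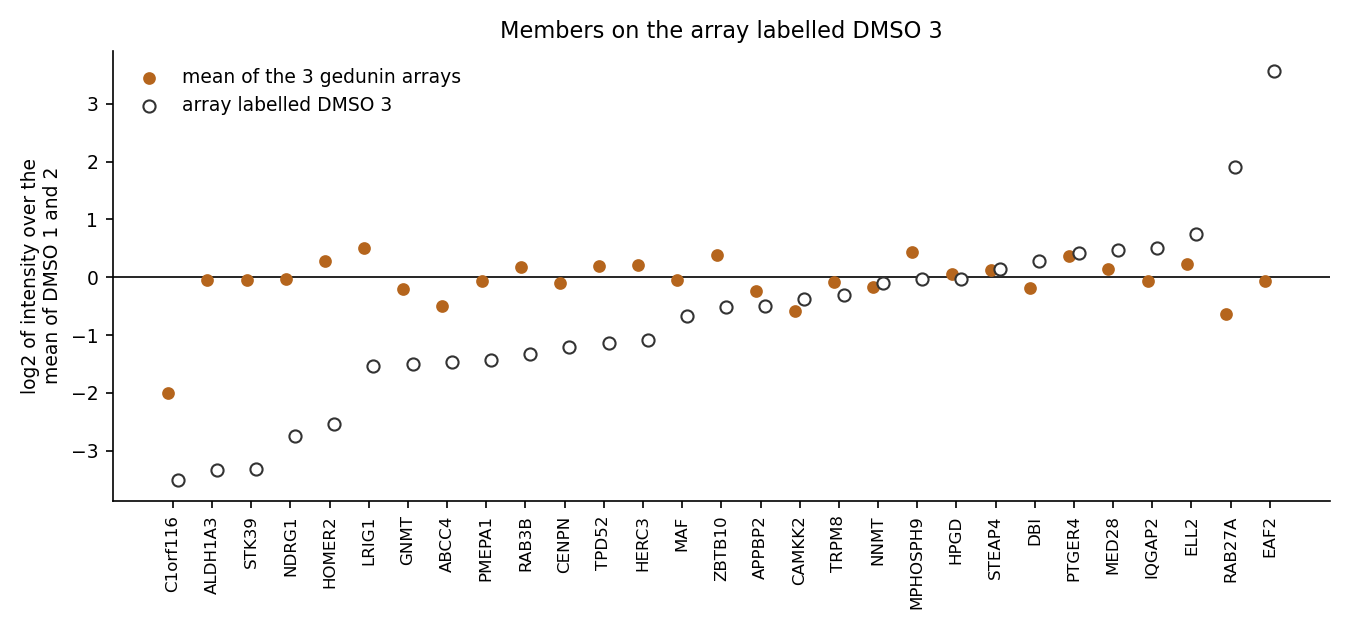
Log2 ratio of each member's intensity to the mean of DMSO 1 and 2, for the mean of the 3 gedunin arrays (filled) and for the array labelled DMSO 3 (open). That array stands far from DMSO 1 and 2 in both directions, with EAF2 highest and C1orf116 lowest.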

How the data were processed

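The members, roles, lists and motifs were chosen with earlier results of these data known. Per the submitters' processing notes, the deposited intensity values were made with RMA (background correction, quantile normalization and probe summary); its version, and which arrays were processed together, are not given in the sources used here. The deposited values were linear (lowest 11.0), without detection calls, and log2 was taken. Of 22215 probe sets, 19724 named 1 gene in the platform annotation of 2016, 568 named several and 1923 were not listed. A gene was represented by its probe set with the highest mean log2 over the 5 arrays. All probe sets were fitted with limma 3.58.1 (R 4.3.3; lmFit, eBayes without trend), gedunin 1 to 3 against DMSO 1 and 2. P-values were adjusted by Benjamini-Hochberg over all probe sets, with a threshold of 0.05. Errors are moderated standard errors. In simulated data for this comparison (22215 probe sets), 50 were changed at each log2 size of 0.5, 1, 2 and 4. Of these, 40, 92, 100 and 100 percent were recovered, with 8 false calls. Far fewer probe sets were changed there than the 3396 called in the data, which makes the adjustment stricter. The shares recovered therefore need not hold for the data. Gene positions come from RefSeq (GRCh38). All 29 measured members were named, and genes of other lists by largest change. Alternatives were other scalings, filters, moderation, probe set rules, a pseudocount, a replicate block, a stricter threshold and each array left out.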

Additional observations from a re-analysis of the deposited data

Results flagged for a closer look

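The array labelled DMSO 3 was left out of the comparison. On it 2 members read at least 2-fold above every other array, a count not made over all genes. EAF2 read 852 there, against 54.6 to 81.1 on the gedunin arrays and 68.8 and 75.5 on DMSO 1 and 2. RAB27A read 230, against 35.8 to 46.1 on the gedunin arrays and 56.6 and 66.7 on DMSO 1 and 2. Leukocyte markers were high on the same array, and their part in these values was not tested.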

How the results depend on the processing

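With all 3 DMSO arrays, 0 members were higher, 0 lower and 312 probe sets called, against 3, 4 and 3396. Not-called members then turned sign: PMEPA1 0.40, CENPN 0.30, ELL2 -0.026, MED28 -0.014, GNMT 0.30, NDRG1 0.89, TRPM8 0.0061, STK39 1.06, ALDH1A3 1.07 and MAF 0.17. Centring on GAPDH and ACTB gave 1 higher, 8 lower and 6267 probe sets, turned MED28 (-0.026), STEAP4 (-0.043) and HPGD (-0.12), and moved the median of all genes to -0.19. Under it 17.2% of called genes were higher, against 46.8%. ACTB itself read 12559 to 13255 with gedunin and 9921 and 10630 on DMSO 1 and 2. In limma's fit of the 5 arrays ACTB was called higher (0.32 ± 0.09, adjusted p = 0.0347). GAPDH was not (0.020 ± 0.09, adjusted p = 0.918). Centring on both therefore lowered the log2 fold change of every gene. Centring on GAPDH and ACTB added DBI, NNMT, GNMT and APPBP2 to the members called lower. The mean of all probe sets gave 1 member higher and 5 lower, DBI added (-0.26), and turned MPHOSPH9 (-0.055), ALDH1A3 (0.065) and MAF (0.052). eBayes with trend and robust gave 3 higher and 5 lower, DBI added (-0.18). Without _x_at and _s_at probe sets, 18 members were left, 1586 probe sets were called and MAF had 0.21. A threshold of 0.01 left 1 member higher and 1869 probe sets. Leaving out each of the 5 arrays in turn gave 2 to 3 members higher, 2 to 4 lower and 1805 to 3064 probe sets, the fewest lower without DMSO 2, and a lone DMSO array was assumed to vary like the gedunin arrays. The ranges that crossed 0 were -0.14 to 0.058 for ALDH1A3, -0.21 to 0.077 for EAF2, -0.096 to 0.043 for MAF, -0.10 to 0.053 for NDRG1, -0.022 to 0.28 for STEAP4 and -0.14 to 0.038 for STK39. The cause was not tested. The calls of C1orf116 and CAMKK2 held in 16 of 16 alternatives on the 5 arrays and that of LRIG1 in 15 of 15, while that of PTGER4 held in 6 of 15. Some alternatives left values as they were. Choosing the probe set by the mean over all 6 arrays gave every member its main value. The mean of all probe sets left the log2 fold change of LRIG1, which has 1 probe set, unchanged. The replicate block called 3 members higher, 4 lower and 2931 probe sets, and changed no member's call. Gedunin 3 had no same-numbered DMSO array in that fit, so the log2 fold changes were those found without gedunin 3. Same-numbered arrays deviated from their group means with correlations of -0.033 and 0.039. With 2 DMSO arrays, their deviations mirror each other, so these values cannot show whether the numbers mark pairs. The numbers were taken as names only. With no detection calls, signal over background limits the dim members.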
